A study of Mus musculus with 6 samples.

Results

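Cytosolic ribosomal protein genes encode the protein parts of the ribosome that translates nuclear messages. They were taken as every gene row whose symbol follows the Rpl or Rps naming pattern (Rpl or Rps with a number and an optional short suffix, plus Rplp0, Rplp1, Rplp2 and Rpsa), which gave 84 of 24411 genes. Of these, 52 belong to the large subunit and 32 to the small subunit. Symbols ending in l or l1 mark 8 paralogs, and the other 76 are called ubiquitous here.

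Bulk RNA-seq covered 3 samples with the large Atoh7 enhancer knocked out (enhancer KO) and 3 wild-type samples (WT), all at postnatal day 18. The protocol names the cerebellum as the tissue, while the tissue field of each sample reads retina. Every sample title carries the same set tag, which the titles do not explain. Apart from it, the labels name no animal, sex, litter, strain or batch. They do not say where the deletion lies, whether it is present in every cell or how many founder lines it came from. P-values below therefore measure the spread between these samples, which may be technical.

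A ribosome holds a large subunit, which forms peptide bonds, and a small subunit, which reads the message, and nearly every ribosomal protein is needed in a single copy per subunit. Most of these genes are short, strongly expressed in every cell type and carry a terminal oligopyrimidine tract, a cytidine followed by a run of pyrimidines at the very start of the transcript, through which mTORC1 and the RNA-binding protein Larp1 set their translation. They also have many processed pseudogenes, so that a read from one of them can often align to several places in the genome.

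The enhancer KO libraries held 36849747 to 40858310 reads in genes and the WT libraries 22812075 to 33076111. Atoh7, the gene whose enhancer was removed, was at 0.744, 0.858 and 0.695 CPM (read counts scaled to library size) in the enhancer KO libraries and at 1.94, 2.05 and 2.13 CPM in the WT libraries, with no overlap (edgeR adjusted p = 3.53e-04). The granule neuron markers summed to between 1560 and 1928 CPM in enhancer KO and between 2369 and 2955 CPM in WT, and 10 of 10 were lower in enhancer KO. Of the 10 Purkinje markers, 6 were higher, with sums of 5921 to 6365 CPM in enhancer KO and 4254 to 5162 CPM in WT. The 10 photoreceptor markers summed to 1.56 to 1.78 CPM in enhancer KO and 1.47 to 2.28 CPM in WT, with Arr3 at 0 throughout, so the defining markers of a retina were nearly absent. In enhancer KO 4 of 8 microglial, 2 of 7 astroglial, 1 of 6 oligodendrocyte and 1 of 7 retinal ganglion markers rose. In the same comparison 5 of 6 endothelial, 1 of 6 oligodendrocyte and 1 of 3 tested photoreceptor markers fell. The choroid plexus, proliferating cell and meningeal lists each had 0 of 6 higher and 0 of 6 lower. Over all 15846 genes tested, 13.4% rose and 17.9% fell, and counts of 1 of 6 or 1 of 7 lie near these shares. Of the 6 erythroid markers, the 4 globin genes were at 0 in both groups. The erythroid list still summed to 30.3 to 48.3 CPM in enhancer KO and 14.7 to 30.7 CPM in WT. Alas2 was its most abundant gene (mean 22.8 CPM), and 0 of its 2 tested markers rose or fell. Reads outside annotated exons made up 17.4% ± 0.735 (SD, n = 3) of all reads in enhancer KO and 32.4% ± 1.56 (SD, n = 3) in WT, and reads aligning to several places made up 10.8% ± 0.550 in enhancer KO and 7.60% ± 0.563 in WT. WT replicate 1 had 34185 reads of Xist and 0 of the Y-linked gene Ddx3y. The other libraries, among them every enhancer KO library, had 28 to 50 reads of Xist and 1916 to 4405 of Ddx3y. The ribosomal RNA gene Rn45s took 1.51% to 1.68% of gene reads in enhancer KO against 12.9% in WT replicate 2 and up to 3.02% in the other WT libraries, and WT replicate 2 also stood apart with 20.4% unmapped reads. The part of cell makeup, of exonic share, of ribosomal RNA and of these libraries in the results below was not tested beyond the values given beside them, and in bulk RNA a change in the number of cells of a type and a change in RNA per cell cannot be told apart.

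Cytosolic ribosomal protein genes were higher in enhancer KO as a group. Of the 84, 80 had enough reads to be tested, and 51 of these 80 rose at an adjusted p under 0.05 while 0 fell. Over all 15846 genes tested, 13.4% rose and 17.9% fell. The median log2 fold change (enhancer KO over WT) was 0.21 over the 80 members, a rise of 15.7%, and 0.00 over all genes tested. It was positive for 75 of 80 members. In 54 members every enhancer KO library lay above every WT library, against 20.5% of all genes tested. In 0 members did every enhancer KO library lie below every WT library, against 3851 of all 15846 genes tested.

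The changes were small. The quartiles of the members' log2 fold changes were 0.13 and 0.28, and the 51 that rose had a median increase of 19.5%. With a test that asks for more than a 1.2-fold change, 4 members remained higher, among them Rpl9, Rps2 and Rps14. At an unadjusted p under 0.05, 59 members were higher and 0 lower, and DESeq2 also gave 0 lower, while limma-voom gave 1, Rpl29. Ribosomal protein genes are strongly expressed, and a change of a given size passes a test more easily at high counts. Among all 6617 genes of at least 30 CPM, 24.3% rose with a median log2 fold change of 0.03, and among the 73 members at that level 69.9% rose with a median of 0.22.

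The summed level of all 84 genes was 8179, 8652 and 8481 CPM in the enhancer KO libraries and 6919, 7473 and 7472 CPM in the WT libraries. The lowest enhancer KO library was thus above the highest WT library, and the means differed by 15.8%. Counted per library, 60, 74 and 76 of the 80 members in the enhancer KO libraries lay above their own mean over all 6 libraries, against 4, 18 and 11 in the WT libraries. WT replicate 1, the library with many Xist reads and none of Ddx3y, was the lowest of the 6 libraries in 66 of the 80 members. Without it 45 members rose with a median log2 fold change of 0.16, and with it as the only WT library the median was 0.31. In that last comparison the spread comes from the enhancer KO libraries alone, and the 61 members then called assume that WT varies alike. Without WT replicate 2, 54 rose with a median of 0.23.

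**Figure D1:**
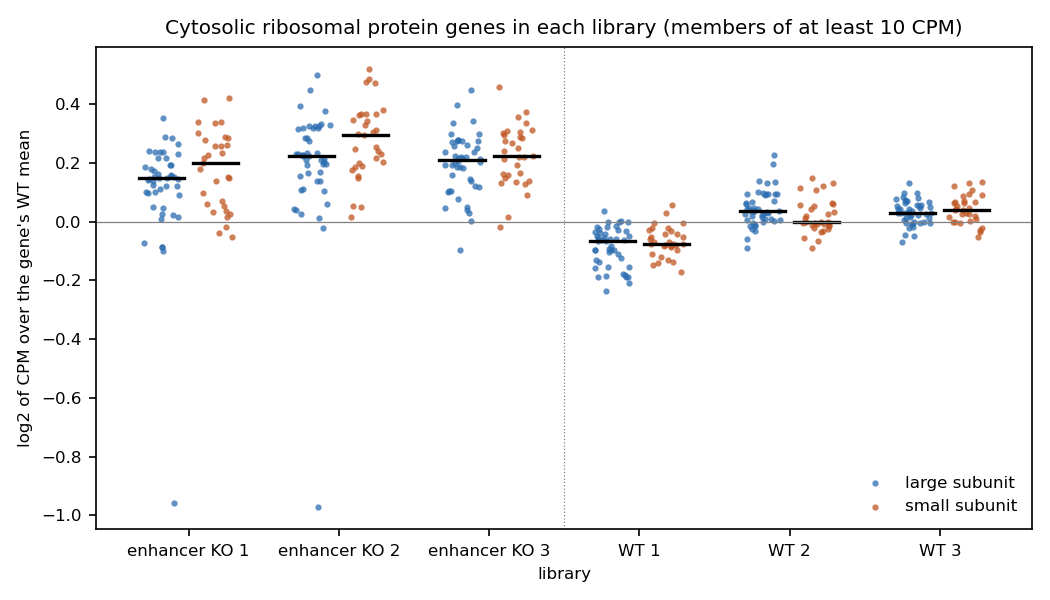
Level of each ribosomal protein gene of at least 10 CPM in each library, as log2 of its CPM over the mean of the 3 WT libraries. Points are genes, blue for the large and orange for the small subunit, and black bars are medians; the medians of the 3 enhancer KO libraries lie above 0 and WT replicate 1 lies below the other 2 WT libraries. The pair of points near -1.0 in enhancer KO replicates 1 and 2 is Rpl29.

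Promoter windows from RefSeq on GRCm38.p6 were found for 63 of the 84 members, in 75 windows of 300 bases. The letters CTTTC, the start of a typical oligopyrimidine tract, stood on the sense strand between 20 bases before and 30 bases after the annotated start in 29.3% of these 75 windows and in 6.57% of 32851 windows of all genes. The sequences below run from 40 bases before to 20 bases from the annotated start, with the first CTTTC near the start in capitals. They show 4 members that rose, then 2 that carry the same letters and did not pass the threshold.
Rplp2, chr7:141447611-141447670, plus strand, rose: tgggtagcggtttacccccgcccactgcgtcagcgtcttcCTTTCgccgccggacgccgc
Rpl35a, chr16:33056442-33056501, plus strand, rose: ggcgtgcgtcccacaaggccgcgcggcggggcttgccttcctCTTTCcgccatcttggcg
Rps10, chr17:27635225-27635284, minus strand, rose: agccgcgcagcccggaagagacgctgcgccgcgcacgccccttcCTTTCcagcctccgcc
Rpl28, chr7:4792925-4792984, plus strand, rose: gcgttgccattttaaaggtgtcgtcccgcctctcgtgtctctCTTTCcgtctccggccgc
Rpl38, chr11:114668540-114668599, plus strand, not past the threshold: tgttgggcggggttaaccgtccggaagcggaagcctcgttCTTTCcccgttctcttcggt
Rps26, chr10:128626487-128626546, minus strand, not past the threshold: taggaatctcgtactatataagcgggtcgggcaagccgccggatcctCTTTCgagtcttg
In all 6 windows the capitals sit within a few bases of the annotated start. Among the members with CTTTC there, 14 of 20 tested rose with a median log2 fold change of 0.20, and among those with a promoter window and no CTTTC there, 27 of 40 rose with a median of 0.22. The letters CCGGAAG, as bound by ETS factors, stood on either strand of 34.7% of member windows and 8.86% of all windows, AAGATGG, as bound by YY1, in 16.0% and 6.34%, and GGGCGG, as bound by Sp1, in 60.0% and 35.7%. Matches of different letters may overlap, and a match is a description of the window and does not show that a factor was bound there.

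Members of the large subunit had 29 of 48 tested genes higher (60.4%), with a median log2 fold change of 0.20. Rpl9, a protein next to the site where elongation factors bind, had the smallest p of all members. It stood at 118.8, 131.5 and 126.8 CPM in enhancer KO and at 91.8, 92.3 and 94.9 CPM in WT, that is, 0.44 ± 0.0460 (SE) higher on the log2 scale (edgeR adjusted p = 3.70e-05). The WT libraries lay within a narrow band below all 3 enhancer KO libraries. Of the 50-base stretches of the Rpl9 transcript, 93.3% also occur in another annotated gene, and reads from such stretches that align to several places were not counted.

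Rpl14 followed, at 88.8, 99.4 and 95.8 CPM in enhancer KO and 71.2, 72.0 and 75.03 CPM in WT (log2 fold change 0.38 ± 0.0495; edgeR adjusted p = 1.68e-04). Rpl3, which lies close to the site of peptide bond formation, had 275, 283 and 273 CPM in enhancer KO and 217, 223 and 236 CPM in WT (0.30 ± 0.0427; edgeR adjusted p = 3.36e-04). Rpl8, another protein of the catalytic core, had 158, 163 and 162 CPM in enhancer KO and 132, 131 and 137 CPM in WT (0.27 ± 0.0395; edgeR adjusted p = 3.96e-04). In all 3 genes the groups were apart. Rpl8 shares 7.86% of its 50-base stretches with another annotated gene, and copies outside the annotation were not looked up.

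Rpl4, a protein that lines the tunnel through which the new peptide leaves, was the most abundant large subunit gene by mean CPM. It had 292, 308 and 311 CPM in enhancer KO and 263, 267 and 260 CPM in WT (log2 fold change 0.20 ± 0.0412; edgeR adjusted p = 0.00294). Rpl7a had 194, 206 and 203 CPM in enhancer KO and 163, 175 and 185 CPM in WT (0.20 ± 0.0486; edgeR adjusted p = 0.00767). Both were higher in every enhancer KO library than in any WT library. Rpl5 and Rpl11, which with the 5S ribosomal RNA form a particle that can also bind Mdm2, had log2 fold changes of 0.17 and 0.26 and both rose (edgeR adjusted p = 0.0125 and 0.0154), the call of Rpl11 being lost without enhancer KO replicate 2.

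The proteins of the stalk, which calls elongation factors to the ribosome, rose in 3 of 3 genes. Rplp1 had 214, 228 and 220 CPM in enhancer KO and 196, 204 and 199 CPM in WT (log2 fold change 0.15 ± 0.0389; edgeR adjusted p = 0.0137), a call lost without enhancer KO replicate 2 (0.0745). Rplp0, the base of the stalk, had 204, 199 and 197 CPM in enhancer KO and 162, 174 and 182 CPM in WT (0.22 ± 0.0460; edgeR adjusted p = 0.00399). Rplp2, whose start is printed above, had 78.1, 86.5 and 87.2 CPM in enhancer KO and 66.4, 69.8 and 69.8 CPM in WT (0.29 ± 0.0511; edgeR adjusted p = 0.00120). No stalk gene had an enhancer KO library within the range of WT. Per kilobase of transcript Rplp1 was the most abundant member of all, at 442 CPM per kb in enhancer KO and 400 CPM per kb in WT, followed by Rps29, Rpl41, Rps15 and Rps14.

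Not all large subunit genes moved. Rpl38, whose loss alters the axial skeleton of mice, had 65.9, 72.5 and 73.1 CPM in enhancer KO and 63.3, 75.3 and 73.0 CPM in WT. Its log2 fold change of 0.0018 ± 0.0668 was the nearest to 0 of the subunit and its edgeR adjusted p of 0.988 the largest. Rpl7 had 156, 160 and 165 CPM in enhancer KO and 144, 164 and 153 CPM in WT (0.06 ± 0.05005; edgeR adjusted p = 0.363). Groups overlapped in both genes, although their levels were as high as those of many members that rose.

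Rpl29, dispensable for life in mice, had the lowest log2 fold change and was named after its values were seen. It had 41.8, 41.3 and 75.9 CPM in enhancer KO and 68.9, 93.0 and 81.5 CPM in WT. Enhancer KO replicates 1 and 2 were below all WT libraries, and enhancer KO replicate 3 lay inside the WT range. The log2 fold change of -0.61 ± 0.315 did not pass (edgeR adjusted p = 0.236). The call was gained on leaving out enhancer KO replicate 3 (log2 fold change -0.96, edgeR adjusted p = 0.00179) and in limma-voom (adjusted p = 0.0369).

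Members of the small subunit had 22 of 32 tested genes higher (68.75%), with a median log2 fold change of 0.25. Rps2, at the entry of the message channel, had 221, 232 and 215 CPM in enhancer KO and 155, 166 and 176 CPM in WT (log2 fold change 0.43 ± 0.0505; edgeR adjusted p = 8.39e-05). Rps14, a protein of the platform near the decoding site whose human counterpart is lost in the 5q deletion syndrome, had 173, 179 and 165 CPM in enhancer KO and 122, 124 and 141 CPM in WT (0.42 ± 0.0556; edgeR adjusted p = 2.14e-04). Rps2 rose by 34.4% and Rps14 by 33.5%, with no library of one group inside the range of the other.

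Rps16, which reaches towards the transfer RNA in the P site, had 92.5, 99.6 and 95.9 CPM in enhancer KO and 74.5, 80.1 and 77.1 CPM in WT (log2 fold change 0.31 ± 0.0460; edgeR adjusted p = 3.70e-04). Rpsa, which also has a history as a laminin receptor, was the most abundant small subunit gene, at 331, 330 and 317 CPM in enhancer KO and 259, 275 and 272 CPM in WT (0.28 ± 0.0424; edgeR adjusted p = 4.66e-04). Rps3, at the entry of the message channel beside Rps2, had 184, 199 and 197 CPM in enhancer KO and 158, 160 and 163 CPM in WT (0.27 ± 0.0421; edgeR adjusted p = 5.42e-04). The groups were apart in all 3. Rps6, the substrate of the S6 kinases, and Rps19, a gene mutated in human Diamond-Blackfan anaemia, both named after their values were seen, rose with log2 fold changes of 0.31 and 0.30.

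Rps24, also mutated in that anaemia in humans, had 169, 189 and 184 CPM in enhancer KO and 158, 171 and 164 CPM in WT (log2 fold change 0.13 ± 0.0498) and did not pass (edgeR adjusted p = 0.0583). It passed under 11 of 19 alternatives, among them the replicate block (0.0280), DESeq2 (0.0485), the omission of enhancer KO replicate 1 (0.0190) and that of WT replicate 2 (0.0452). Rps15a had 97.7, 99.8 and 97.2 CPM in enhancer KO and 98.0, 95.3 and 94.7 CPM in WT. With a log2 fold change of 0.03 ± 0.0394 it was the small subunit gene nearest to 0 among those above 10 CPM (edgeR adjusted p = 0.577), and its libraries of both groups were intermixed. Rps27a, which is made as a fusion with ubiquitin, had 103, 115 and 114 CPM in enhancer KO and 96.0, 99.1 and 109 CPM in WT (0.12 ± 0.0589; edgeR adjusted p = 0.146). It did pass on leaving out enhancer KO replicate 1 (0.0410) or WT replicate 3 (0.0469).

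**Figure D2:**
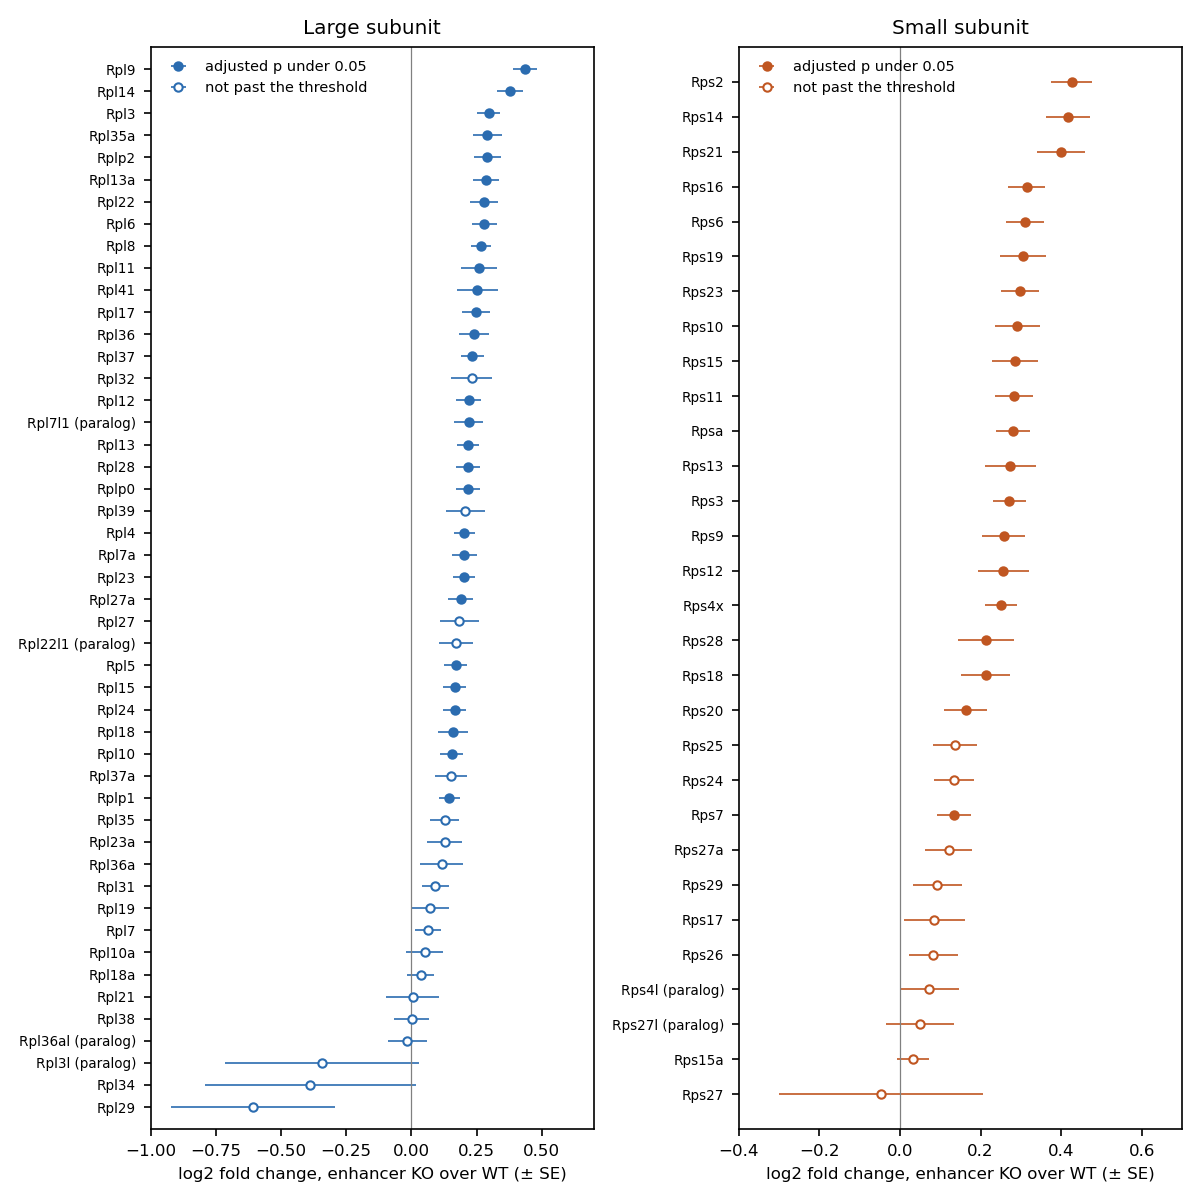
Log2 fold change of enhancer KO over WT (horizontal axis) with its standard error for the 48 tested large subunit genes (left) and 30 of the 32 tested small subunit genes (right). Filled points passed an adjusted p of 0.05; of the genes drawn, 29 large and 20 small subunit genes are filled. All filled points lie to the right of 0, and the widest bars belong to the genes with few reads (Rpl3l, Rpl34, Rps27) and to Rpl29.

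Set beside each other, both subunits rose. Their sums were 13.9% higher for the large and 18.7% higher for the small subunit. The ratio of the large over the small subunit sum was 1.45, 1.44 and 1.47 in enhancer KO and 1.502, 1.54 and 1.51 in WT. The ratio was lower in each enhancer KO library than in each WT library, by 4.05% of the WT mean, and since it is a score over chosen members it was given no test.

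Of the 4 members on the X chromosome, 2 rose. Rps4x had 122, 123 and 126 CPM in enhancer KO and 101, 104 and 107 CPM in WT (log2 fold change 0.25 ± 0.0406; edgeR adjusted p = 7.21e-04). Rpl10, which joins the large subunit late in its assembly, had 96.4, 99.9 and 93.2 CPM in enhancer KO and 83.9, 86.7 and 89.4 CPM in WT (0.16 ± 0.0445; edgeR adjusted p = 0.0194), a call lost without enhancer KO replicate 2 (0.0839) or WT replicate 1 (0.0510). Rpl39 (0.21 ± 0.0732; edgeR adjusted p = 0.0529) and Rpl36a (0.12 ± 0.0819; edgeR adjusted p = 0.319) overlapped between groups. Rpl39 passed under 10 of 19 alternatives, among them the replicate block (0.0121), DESeq2 (0.0300), the omission of enhancer KO replicate 1 (0.00856) and that of WT replicate 2 (0.0348), and Rpl36a passed without enhancer KO replicate 1 (0.0412).

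Ubiquitous genes had 50 of 74 tested members higher with a median log2 fold change of 0.21, and paralogs 1 of 6 with a median of 0.06. Some paralogs, not necessarily those listed here, can take the place of their partner in some tissues. At 6 tested genes, several of them low, the counts of both classes cannot be set against each other with any precision. Rpl7l1 was the paralog that rose, at 44.2, 46.2 and 47.7 CPM in enhancer KO and 39.5, 37.1 and 41.8 CPM in WT (0.22 ± 0.0564; edgeR adjusted p = 0.0115). Rpl22l1, which rises in mice that lack Rpl22, had 24.5, 25.4 and 27.9 CPM in enhancer KO and 22.4, 23.1 and 23.5 CPM in WT. Its groups did not overlap, but its log2 fold change of 0.17 ± 0.0660 did not pass (edgeR adjusted p = 0.0669). Its partner Rpl22 had 63.4, 72.0 and 66.2 CPM in enhancer KO and 54.1, 56.8 and 55.3 CPM in WT and rose (0.28 ± 0.0533; edgeR adjusted p = 0.00204).

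Rps27l, a target of p53, had 13.2, 15.4 and 13.4 CPM in enhancer KO and 12.9, 13.8 and 13.9 CPM in WT (log2 fold change 0.05 ± 0.0842; edgeR adjusted p = 0.699). Rps4l had 14.8, 14.4 and 15.8 CPM in enhancer KO and 14.8, 13.9 and 13.9 CPM in WT (0.07 ± 0.0734; edgeR adjusted p = 0.494). Rpl36al had 17.9, 18.5 and 19.2 CPM in enhancer KO and 17.1, 20.1 and 19.2 CPM in WT (-0.02 ± 0.0750; edgeR adjusted p = 0.898). All 3 overlapped between the groups. Rpl3l, the paralog of striated muscle, was near the limit of detection, at 0.292, 0.312 and 0.312 CPM in enhancer KO and 0.308, 0.293 and 0.533 CPM in WT. The paralogs known from the testis had too few reads to be tested: Rpl10l had 0 reads in every library and Rpl39l had 2, 2 and 1 reads in enhancer KO and 5, 1 and 0 reads in WT.

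The ratio of a paralog to its partner within a library does not depend on how libraries are scaled. Rpl7l1 over Rpl7 had log2 ratios of -1.82, -1.79 and -1.79 in enhancer KO and -1.86, -2.14 and -1.87 in WT, a difference of 0.16. Rps4l over Rps4x had -3.05, -3.09 and -2.99 in enhancer KO and -2.77, -2.89 and -2.94 in WT, a difference of -0.18. Rpl3l over Rpl3 differed by -0.57, resting on only 11, 12 and 13 reads of Rpl3l in enhancer KO and 10, 6 and 18 in WT. Without WT replicate 2 the difference of Rpl7l1 was 0.06, and without WT replicate 3 that of Rpl3l was -0.34. In these 3 pairs the groups were apart and the exact two-sided permutation test gave p = 0.1, the smallest that 3 against 3 libraries allow (0.2 after Benjamini-Hochberg adjustment over the 6 pairs). For Rpl36al, Rpl22l1 and Rps27l the differences were -0.13, -0.11 and 0.12, with exact permutation p of 0.3, 0.3 and 0.2. On leaving out single libraries these differences ran from -0.20 to -0.06, from -0.17 to -0.04 and from 0.07 to 0.18. The ratio of Rps27l rests on the very low counts of Rps27, which are given below. No pair could thus have passed the threshold in this design. Per kilobase and averaged over all libraries the partner was more abundant than its paralog by 1.76 times for Rpl36a, 2.92 for Rpl22, 6.30 for Rps4x, 8.22 for Rpl7 and 748 for Rpl3.

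**Figure D3:**
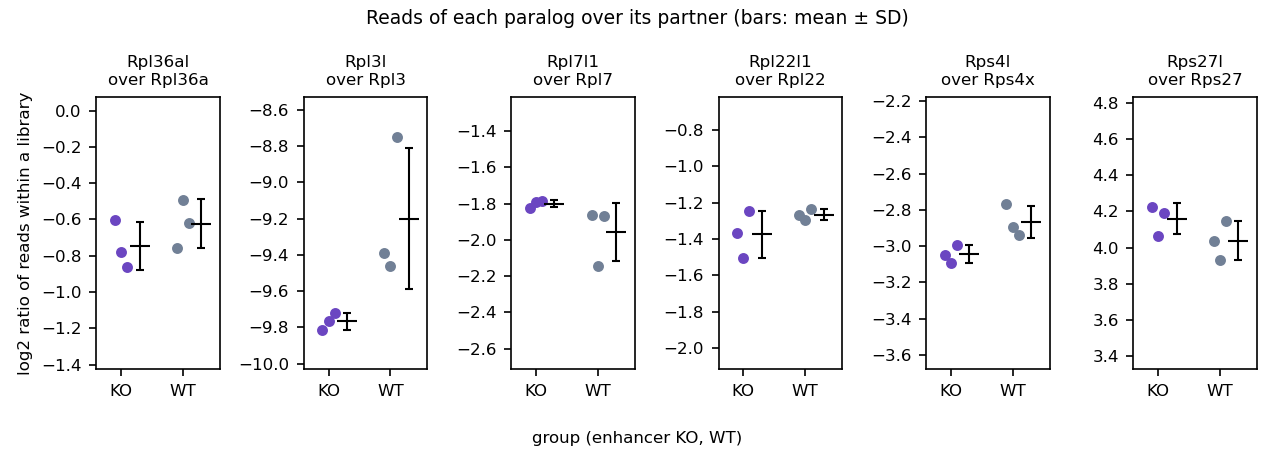
Log2 ratio of the reads of each paralog over its partner in each library, for the 6 pairs whose genes were both tested; points are libraries (enhancer KO left, WT right), and bars are the mean ± SD of 3 libraries. Each panel spans the same range of log2 units, and the groups do not overlap for Rpl3l, Rpl7l1 and Rps4l.

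Several ubiquitous members were listed at or near 0, which limits what these counts can say about them. Rpl26 had 0 reads in all 6 libraries; 3 reads, the limit that a count of 0 allows, correspond to 0.0719 to 0.0797 CPM in enhancer KO and 0.0888 to 0.146 CPM in WT. Rpl30 had 5, 6 and 5 reads in enhancer KO and 7, 4 and 0 reads in WT. Rpl34 had 0.159, 0.260 and 0.336 CPM in enhancer KO and 0.308, 0.293 and 0.385 CPM in WT, and Rps27 0.691, 0.910 and 0.719 CPM in enhancer KO and 0.771, 0.879 and 0.769 CPM in WT. Rps27 had the largest edgeR adjusted p of the small subunit (log2 fold change -0.05 ± 0.253; adjusted p = 0.908). These proteins are parts of every ribosome, and their counts were not read as their level. Of their 50-base stretches, 71.3% (Rpl26), 47.8% (Rpl30), 50.6% (Rpl34) and 98.6% (Rps27) also occur in another annotated gene. Other members with high percentages had many reads, such as Rpl9 (93.3%, mean 109 CPM) and Rpl31 (56.6%, mean 106 CPM). Why Rpl26, Rpl30, Rpl34 and Rps27 had so few reads was not tested. Rps27l thus appears more abundant per kilobase than Rps27 (27.5 against 2.29 CPM per kb over all libraries), an order that these counts cannot settle.

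Because reads with several places were not counted, the rise was looked at by how much of a member is shared with other genes. Of the tested members that share under 25% of their 50-base stretches, 8 of 14 rose; of those sharing from 25% to 75%, 29 of 46; and of those sharing 75% or more, 14 of 20. The median log2 fold change was 0.21 in each class. Rps3 (2.96% shared), Rpl8 (7.86%) and Rpl4 (16.5%) are described above. Among members with a low shared percentage that did not pass were Rps15a (6.14% shared, log2 fold change 0.03) and Rpl3l (0%, -0.34). The percentage depends on the transcript used, which had 5130 bases for Rps15a and 3706 for Rps20 (7.57% shared). The median over the tested members was 774.5 bases. Stretches of Rps15a and Rps20 occur in 64 and 50 other genes, so their place in the lowest class is uncertain. The part of reads with several places in the rise was not tested. Over the 80 members, described here without a test since they share the same 6 libraries, the log2 fold change had a Pearson r of 0.0325 and a Spearman rho of -0.0217 with the shared percentage, and 0.356 and 0.295 with the mean CPM.

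**Figure D4:**
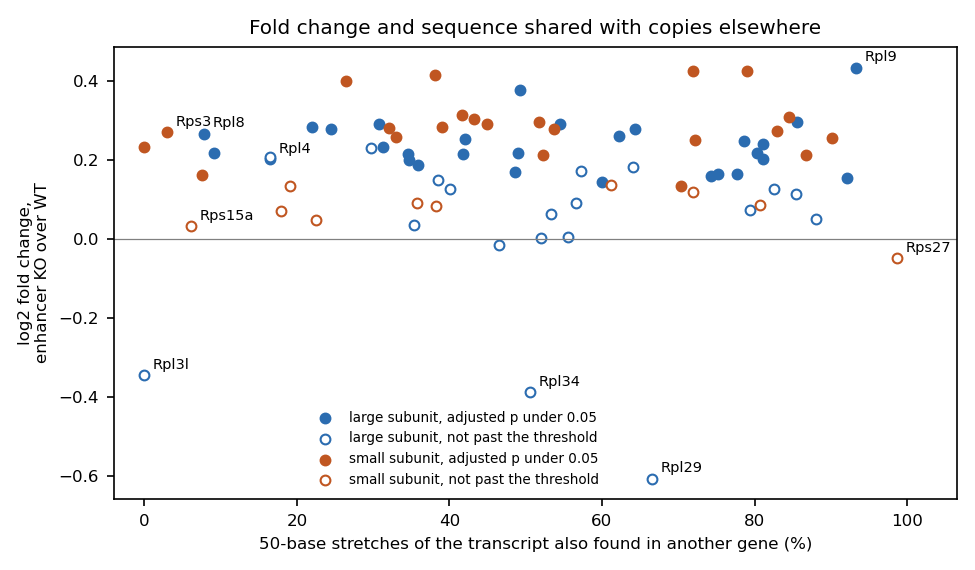
Log2 fold change of enhancer KO over WT (vertical axis) against the percentage of each member's 50-base stretches found in another annotated gene (horizontal axis), for the 80 tested members. Filled points passed an adjusted p of 0.05, among them Rps3 at 2.96% and Rpl9 at 93.3%. The percentage depends on the length of the transcript used, which was 5130 bases for Rps15a.

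Many ribosomal protein genes carry small nucleolar RNA genes in their introns. Of the 28 tested members that do, 23 rose with a median log2 fold change of 0.23, and of the 52 that do not, 28 rose with a median of 0.17. The 52 include all 6 tested paralogs and also Rpl34 and Rps27, which had few reads. A link between the rise and these intronic genes was not tested. Ribosomal protein transcripts were short, with a median of 774.5 bases over the tested members and 2795 over all genes tested, and their introns summed to a median of 1140.5 and 19380 bases. With the trend of each library over intron length, transcript length and GC content removed, an alternative added after the data were seen, 56 members rose with a median log2 fold change of 0.21. The same step turned the calls over all genes to 2877 higher and 2095 lower, against 2120 higher and 2844 lower without it, and scaling by library size alone gave 2165 higher and 1689 lower.

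Genes of 3 other families of housekeeping complexes were set beside the ribosomal proteins. Proteasome genes had 15 of 37 tested members higher (40.5%) and 0 lower, with a median log2 fold change of 0.11, the higher count being 8, 10 and 9 without enhancer KO replicate 2, enhancer KO replicate 3 and WT replicate 3. Nuclear genes of the respiratory chain had 19 of 85 higher (22.4%) and 0 lower, with a median of 0.10. Proteins of the mitochondrial ribosome had 9 of 77 higher (11.7%, against 13.4% of all genes tested) and 1 lower, with a median of 0.10; the higher count was 1 and 2 without enhancer KO replicates 3 and 2, and 4, 5 and 2 without WT replicates 1, 2 and 3. All 3 medians lay above the 0.00 of all genes tested and below the 0.21 of the cytosolic ribosomal protein genes, and no test was made of these differences.

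**Figure D5:**
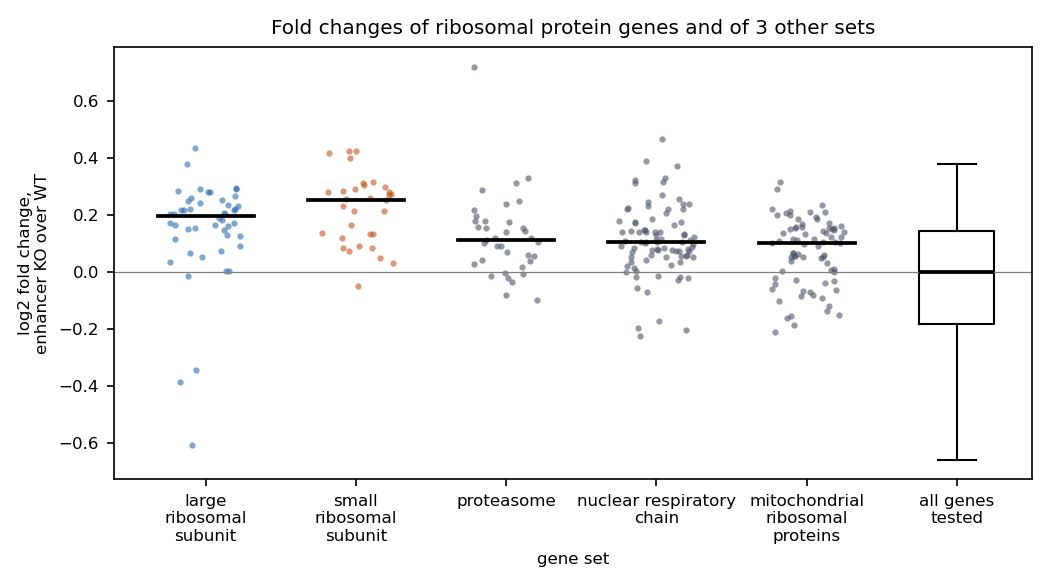
Log2 fold changes of enhancer KO over WT of single genes (points) in the large and the small subunit of the cytosolic ribosome and in 3 other families, with medians as black bars; the box on the right shows the quartiles and median of all 15846 genes tested, with whiskers at the 5th and 95th percentiles. The medians are 0.20 and 0.25 for the subunits and 0.10 to 0.11 for the other families.

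Other proteins of the cytosolic ribosome carry symbols outside the naming pattern. Fau, a ubiquitin-like fusion that yields a small subunit protein, had 114, 111 and 107 CPM in enhancer KO and 83.8, 92.4 and 95.9 CPM in WT (log2 fold change 0.29 ± 0.0531; edgeR adjusted p = 0.00169). Gnb2l1, which encodes the scaffold Rack1 on the small subunit, also rose (0.17 ± 0.0455; edgeR adjusted p = 0.0125), a call lost without enhancer KO replicate 2 (0.0601). The libraries of both groups were apart in each of these genes. Rps3a1, the mouse gene of a small subunit protein, named after its values were seen, rose too (0.14 ± 0.0466; edgeR adjusted p = 0.0430).

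Genes that act in building ribosomes were counted in the same way. Of 50 biogenesis genes, 3 rose (6%, against 13.4% of all genes tested) and 10 fell (20%, against 17.9%), with a median log2 fold change of -0.02. The lower count was 6 without enhancer KO replicate 1 or 2 and 5 with scaling by library size alone, and both shares of all genes apply to the lists that follow. Riok1, a kinase of small subunit maturation, had 11.6, 11.6 and 12.7 CPM in enhancer KO and 17.0, 18.6 and 17.6 CPM in WT (-0.56 ± 0.0755; edgeR adjusted p = 2.01e-04). Gnl2, a nucleolar GTPase of large subunit maturation, had 26.5, 27.5 and 26.5 CPM in enhancer KO and 33.9, 35.2 and 34.3 CPM in WT (-0.36 ± 0.0532; edgeR adjusted p = 4.04e-04). Heatr1, which acts in ribosomal RNA transcription and processing, fell as well (-0.43 ± 0.0674; edgeR adjusted p = 5.47e-04). In these 3 genes no enhancer KO library reached the lowest WT library. The genes that rose were Eif6, which keeps free large subunits from joining (0.22), Mrto4, which holds the place of Rplp0 during assembly (0.22), and Nhp2l1, a protein of small nucleolar ribonucleoproteins (0.16). All 3 lost their calls without enhancer KO replicate 2 (edgeR adjusted p = 0.0534, 0.0728 and 0.114), Eif6 also without WT replicate 2 (0.0505), and Mrto4 and Nhp2l1 also with the replicate block (0.0588 and 0.0605), DESeq2 and most other omissions of a library.

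Of 20 genes of RNA polymerase I and its factors, 1 rose (5%) and 6 fell (30%), with a median log2 fold change of -0.14. The lower count was 4 to 6 on leaving out single libraries and 2 with scaling by library size alone. Taf1a, Taf1d and Taf1b encode parts of the selectivity factor that places this polymerase on ribosomal RNA genes. Taf1a had 5.24, 5.54 and 5.42 CPM in enhancer KO and 9.71, 8.99 and 7.96 CPM in WT (-0.72 ± 0.109; edgeR adjusted p = 4.79e-04). Taf1d was at -0.57 (edgeR adjusted p = 0.00317). Taf1b was at -0.32 (edgeR adjusted p = 0.0130), and lost its call without enhancer KO replicate 1 or 2 (0.0704 and 0.0545). All 3 had every enhancer KO library below every WT library. The gene that rose was Polr2l, a subunit shared by the nuclear RNA polymerases (0.24), which lost its call without enhancer KO replicate 1 or 2 or WT replicate 1 or 3, with edgeR adjusted p between 0.0720 and 0.137, and under the replicate block (0.0515).

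Of 20 other transcripts with an oligopyrimidine tract, 8 rose and 2 fell, with a median log2 fold change of 0.11. Eef1a1, the elongation factor that brings transfer RNA to the ribosome, had 1563, 1546 and 1445 CPM in enhancer KO and 1186, 1207 and 1267 CPM in WT (0.32 ± 0.0446; edgeR adjusted p = 2.90e-04). Eef1g, a part of its exchange factor, had 133, 136 and 129 CPM in enhancer KO and 108.0, 108.4 and 108.2 CPM in WT (0.29 ± 0.0392; edgeR adjusted p = 1.97e-04). Eif3h, a subunit of an initiation factor, rose by 0.34 on the log2 scale (edgeR adjusted p = 2.22e-04). In all 3 the groups were apart. The 2 that fell were Gas5, a noncoding host gene of small nucleolar RNAs (-0.88; edgeR adjusted p = 2.10e-05), and Hnrnpa1, a splicing factor (-1.54; edgeR adjusted p = 2.82e-05). Hnrnpa1 had 1.68, 2.002 and 2.04 CPM in enhancer KO and 6.35, 5.27 and 4.97 CPM in WT, and has many near-identical copies, so that its value is uncertain.

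Of 20 genes that regulate this class of transcripts or mTORC1, 4 rose (20%) and 3 fell (15%), with a median log2 fold change of -0.03. The higher count was 2 without WT replicate 2 or 3 and 7 after removal of the gene structure trend. Rps6kb2, a kinase of Rps6, had 10.1, 10.5 and 11.6 CPM in enhancer KO and 21.95, 20.8 and 22.8 CPM in WT (-1.03 ± 0.0778; edgeR adjusted p = 3.39e-06). Cnbp, which binds oligopyrimidine transcripts, rose (0.22; edgeR adjusted p = 0.00509), and so did Rheb, the activator of mTORC1 (0.20; edgeR adjusted p = 0.0119), which lost its call without WT replicate 3 (0.0553). Tsc2, an inhibitor of Rheb, fell (-0.19; edgeR adjusted p = 0.00517), a call lost with scaling by library size alone (0.239) and after removal of the gene structure trend (0.186). Of 15 p53 target and pathway genes, which respond when free Rpl5 and Rpl11 hold back Mdm2, 2 rose and 2 fell (13.3% each), with a median of 0.02. Zmat3 (0.29) and Mdm2 (0.26) rose, and Mdm4 (-0.56) and Bbc3 (-0.30) fell, the call of Bbc3 being lost without any 1 of enhancer KO replicates 1, 2 and 3 and WT replicates 2 and 3 (edgeR adjusted p between 0.0606 and 0.102), under the replicate block (0.0606) and with scaling by library size alone (0.189).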

How the data were processed

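Trimmomatic, STAR and the build mm10 are named in the submitters' processing notes; the tools' versions, the annotation and the read length are not given there. As deposited by the authors, the files hold raw counts of reads per gene, without normalization. The column for the strand that holds nearly all reads was used, and 4 rows that name no gene were left out of library sizes. STAR leaves out of these counts any read that aligns to several places.

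Genes were filtered with filterByExpr (15846 of 24411 kept), scaled by TMM and tested with edgeR 4.0.16 in R 4.3.3 (robust quasi-likelihood test, two-sided, Benjamini-Hochberg adjustment over all genes tested, threshold 0.05). CPM are relative to TMM-scaled library sizes; fold changes have enhancer KO on top, and errors of CPM means are SDs. Paralog ratios had 0.5 reads added to both genes. Alternatives used RLE, library size alone, TMM from other genes, 2 other filters, a replicate block, the unstranded column, a 1.2-fold minimum, DESeq2 1.42.0, limma-voom (limma 3.58.1), Rn45s removal, leaving out libraries and, added later, removal of a trend fitted with mgcv 1.9.3. The edgeR test was also run on counts simulated from its own fitted means and dispersions. Such counts cannot show how the test fares with differences between whole libraries.

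Positions and transcripts came from GENCODE mouse release M21, on the same build; 23336 symbols matched directly, 649 by an older symbol and 426 had none. Levels per kilobase and shared 50-base stretches used each gene's principal transcript, and the stretches were looked up in all other annotated genes that do not overlap it. Promoter sequences (250 bases before to 50 after each start) came from RefSeq on GRCm38.p6. The closest libraries, enhancer KO replicates 1 and 2, differed beyond sampling noise (median chi-square per gene 1.13, against 0.455), and all 6 were kept. Total reads per library were 57466712 to 65530873 in enhancer KO and 59850539 to 63545272 in WT.

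The members and lists were chosen with earlier results of these data known. Named were up to 8 members per direction with the smallest p and groups that do not overlap, the 4 most abundant of each subunit, those nearest 0 or with the largest p, the paralogs and partners, the stalk genes, Rpsa, Rps27a, X-linked members, Fau, Gnb2l1, and up to 3 genes per list; other names were added after their values were seen. A few genes that enter the counts are not reported here by name.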

Additional observations from a re-analysis of the deposited data

How the results depend on the processing

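The number of members that rose was 42 to 56 and their median log2 fold change 0.16 to 0.28 under all alternatives other than the minimum fold of 1.2 and WT replicate 1 as the only WT library; that single library gave 61 and 0.31, with the spread taken from enhancer KO alone. Leaving out 1 library gave 42 (without enhancer KO replicate 2) to 56 members higher, and 0 to 1 members lower, 0 to 1 of the large subunit. That gene was Rpl29, also the 1 member of the large subunit that limma-voom called lower. A 1.2-fold minimum left 4 members higher (1 large, 3 small, 0 paralogs), beside 83 higher and 908 lower over all genes. Paralogs higher were 2 (Rpl7l1 and Rpl22l1) with the unstranded column, with Rn45s removed and with the gene structure trend removed. Lower calls over all genes were 1689 with library size alone and 1640 without WT replicates 2 and 3. Of the 80 members tested, 69 had a positive change under all 19 alternatives, and 41 rose in all but the 1.2-fold test.

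Signs turned in 5 of the 50 genes named by rule, none past the threshold. Rps27 had a log2 fold change of 0.0093 with library size alone, 0.027 without WT replicates 2 and 3, and -0.18 to 0.036 on leaving out single libraries. Rpl36al was at 0.048 with library size alone, 0.0018 with the unstranded column, 0.0026 with Rn45s removed, 0.14 without WT replicates 2 and 3, and -0.082 to 0.040 on leaving out single libraries. Rpl38 was at -0.0024 with at least 1 CPM, -0.024 with the trend removed and -0.072 to 0.061 on leaving out single libraries. Rps27l ranged from -0.025 to 0.10 and Rpl3l from -0.51 to 0.017 on leaving out single libraries, and Rpl3l was at 0.010 without WT replicates 2 and 3. The causes were not tested.

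Whether the replicate numbers pair the samples could not be settled. After centring each gene within its group, same-numbered libraries had correlations of 0.06, -0.05 and -0.13, and the others -0.14 to 0.16. Centring groups of 3 makes these values offset one another, so they cannot exclude a pairing. The replicate block gave 54 members higher with a median of 0.21. It gave 3 higher genes of the mitochondrial ribosome, 1 of biogenesis and 0 of RNA polymerase I. Of 948 values of named genes under alternatives, 855 kept direction and side of the threshold. Fewer than 10 reads limit Rpl30, Rpl39l, Rpl10l and Rpl26, and reads with several places limit any member with near-identical copies.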
